A study of Homo sapiens with 8 samples.

Results

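The 4 irradiated samples of a study of nascent transcription in human fibroblasts are described here, wild type (WT) and *ZFAS1* knockdown (KD), out of 8 samples in all. They were chosen by their labels: every sample that received 10 J/m2 of UV-C, which gives a WT and a KD sample at 10 min and another pair at 40 min. The cells were MRC5, a line of human fetal lung fibroblasts that the study's methods call MRC5_VA and describe as immortalized with SV40. The study made its knockdown cells by lentiviral RNA interference against *ZFAS1*, and the labels say only KD, with no hairpin or line named. All 8 samples, the controls included, had first been held in 100 µM DRB for 3.5 h. The DRB medium was then removed, cells were irradiated or not, and nuclei were taken after 10 or 40 min in medium without DRB for a run-on of 5 min. The 4 samples without UV (WT and KD at 10 and 40 min) have the same drug treatment and are used only where they show how the irradiated pairs differ from them. The question of the study was whether *ZFAS1* affects the shutdown and the elongation of transcription by RNA polymerase II after damage.

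GRO-seq captures the RNA that engaged polymerases extend in isolated nuclei, so a read marks a polymerase at work and not the amount of finished RNA. DRB blocks the kinase that releases polymerase from the start of genes, and washing it out lets a synchronized wave move into the gene bodies. UV-C joins neighbouring pyrimidines in DNA, and a polymerase that meets such a lesion on the template strand stops there, so long genes are hit more often than short ones. Stalled polymerase recruits the factors of transcription-coupled repair. *ZFAS1* is a noncoding transcript whose introns carry small nucleolar RNAs and lies head to head with *ZNFX1*, which encodes a zinc finger helicase.

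Each sample is 1 library, so every group has n = 1, and nothing says that the libraries came from separate cultures. No p-value therefore measures a spread between cultures. The fit left 1 residual degree of freedom, the change of the KD difference between the times. The spread behind the p-values and SEs came mostly from the trend over genes (15.79 prior degrees of freedom). KD was compared with WT over the 2 pairs matched by time. The 4 libraries held 10594122 and 12867908 reads over genes in WT, and 12052097 and 14955131 in KD, at 10 and 40 min. A gene was taken as its transcript with the largest end minus start, and 17509 of 19351 genes had enough reads to be tested. Of the 10 fibroblast markers looked at, 8 had a read density over 3 times that of silent genes in all 4 irradiated libraries, *COL1A1*, *FN1* and *VIM* among them. *DCN* was below the density of silent genes in all 8 libraries (0.394 to 0.538 times in the irradiated ones). Among the irradiated libraries *THY1* passed only in the 2 of WT, and without UV it was at 3.07 times in WT at 10 min. The tables come in 2 orders of rows. WT with UV and KD without UV share 1 order, and KD with UV and WT without UV share the other. A difference between KD and WT after UV therefore cannot be told apart from a difference between the sets of libraries that share a row order.

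The start regions of 5 genes are given as single examples and do not stand for the groups described next. The genes are the targeted gene, a ribosomal protein gene, a zinc finger gene, a mitotic gene and a gene that was high in WT after UV only. The sequences run from 250 bases before to 50 bases after the annotated start, on the gene's strand, from RefSeq (GRCh38.p14). Capitals mark the CCAAT box (CCAAT), the GC box (GGGCGG) and the core site of ETS factors (CCGGAAG) on either strand.
*ZFAS1*, chr20:49278392-49278691, plus strand: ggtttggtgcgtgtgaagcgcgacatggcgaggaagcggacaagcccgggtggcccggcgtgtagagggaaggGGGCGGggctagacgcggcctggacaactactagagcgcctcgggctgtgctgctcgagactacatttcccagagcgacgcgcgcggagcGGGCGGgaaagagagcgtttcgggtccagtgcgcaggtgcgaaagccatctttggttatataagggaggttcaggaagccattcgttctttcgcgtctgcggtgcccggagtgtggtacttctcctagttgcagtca
*RPSA*, chr3:39406470-39406769, plus strand: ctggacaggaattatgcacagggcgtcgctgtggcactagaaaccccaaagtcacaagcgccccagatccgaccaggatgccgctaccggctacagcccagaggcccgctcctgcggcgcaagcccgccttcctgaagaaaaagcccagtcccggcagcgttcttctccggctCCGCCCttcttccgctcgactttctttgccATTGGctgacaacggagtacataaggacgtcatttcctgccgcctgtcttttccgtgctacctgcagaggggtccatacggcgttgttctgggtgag
*ZNF432*, chr19:52048789-52049088, minus strand: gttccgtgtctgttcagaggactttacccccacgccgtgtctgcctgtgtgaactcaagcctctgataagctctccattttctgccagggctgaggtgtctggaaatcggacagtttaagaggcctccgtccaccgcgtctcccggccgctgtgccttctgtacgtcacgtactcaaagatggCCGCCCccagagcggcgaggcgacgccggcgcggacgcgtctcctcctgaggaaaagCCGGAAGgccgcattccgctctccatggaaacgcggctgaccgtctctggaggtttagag
*CDC20*, chr1:43358731-43359030, plus strand: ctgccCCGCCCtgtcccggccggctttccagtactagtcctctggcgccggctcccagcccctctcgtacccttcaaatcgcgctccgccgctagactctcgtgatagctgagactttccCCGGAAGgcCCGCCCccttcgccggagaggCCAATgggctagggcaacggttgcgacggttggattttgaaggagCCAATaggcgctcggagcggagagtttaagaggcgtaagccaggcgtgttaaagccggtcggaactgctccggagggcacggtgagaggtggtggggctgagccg
*BOK*, chr2:241558495-241558794, plus strand: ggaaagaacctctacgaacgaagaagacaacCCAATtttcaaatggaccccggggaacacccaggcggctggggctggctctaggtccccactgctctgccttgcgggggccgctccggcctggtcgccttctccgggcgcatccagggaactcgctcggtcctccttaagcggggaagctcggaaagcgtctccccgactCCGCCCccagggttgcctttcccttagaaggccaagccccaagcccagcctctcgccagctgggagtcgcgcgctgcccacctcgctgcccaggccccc
In *ZNF432* the ETS core begins 10 bases before the start. In *CDC20* a pair of CCAAT boxes begins 100 and 55 bases before it. In *RPSA* a CCAAT box on the opposite strand lies 47 bases before it. *ZFAS1* holds GC boxes at 177 and 87 bases before it and neither of the other motifs. *BOK* holds a CCAAT box 219 bases and a GC box 49 bases before its start.

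The targeted gene was read first. *ZFAS1* (chr20:49278178-49289260, hg38, as the tables give it) had 676 reads per 1e6 reads over genes (RPM) in WT and 679 RPM in KD at 10 min after UV. At 40 min it had 606 RPM in WT and 846 RPM in KD. Without UV the values were 510 and 1756 RPM in WT and 827 and 1409 RPM in KD. KD was 1.00-fold WT at 10 min and 1.40-fold at 40 min after UV, so it was not lower at either time. The fitted log2 difference was 0.30 ± 0.21 (SE, edgeR adjusted p = 0.361). RNA interference acts on finished RNA and a run-on counts polymerases on the gene, so these values do not check the knockdown. The neighbour *ZNFX1* had 12.9 and 23.3 RPM in WT and 16.3 and 26.2 RPM in KD after UV, a log2 difference of 0.30 ± 0.18 (edgeR adjusted p = 0.290).

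After UV, KD and WT differed in the same direction at both times for most genes. Of the 17509 genes, 6301 were higher in KD in both pairs and 6013 lower in both. The log2 differences at 10 and 40 min had a Pearson r of 0.48 and a Spearman rho of 0.49 across genes, which are not independent replicates, and each time has its own WT and KD library. The edgeR quasi-likelihood test with time as a term called 339 genes higher in KD (1.94% of those tested) and 476 lower (2.72%) at an adjusted p under 0.05. At an unadjusted p under 0.05 there were 4772. A further count without a test took genes at least 1.5-fold apart in the same direction in both pairs, and gave 336 higher (1.92%) and 751 lower (4.29%). These calls rest on 1 residual degree of freedom, and in a fit of all 8 libraries with KD estimated within the irradiated ones the test called 0 genes higher and 18 lower. Leaving out any 1 of the 4 irradiated libraries in that fit left at most 1 gene called higher, which was *LHFPL3-AS2* without the WT library at 10 min, and 2 (without the KD library at 10 min) to 18 lower.

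**Figure D1:**
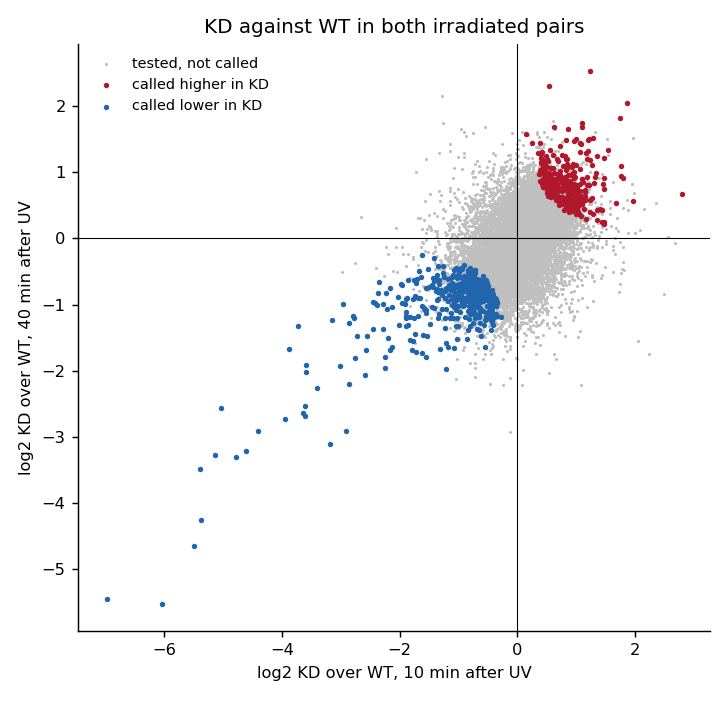
Log2 ratio of KD over WT at 10 min (x axis) against 40 min (y axis) after UV, 1 point per tested gene, with the 339 genes called higher in red, the 476 called lower in blue and the rest in grey. The called genes lie in the quadrants of equal sign, and a tail of genes lower in KD reaches below −5 on both axes.

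The called genes share a property that the test did not use. Of the 339 genes higher in KD after UV, 324 (95.6%) lay below WT in KD in each unirradiated pair, against 44.3% of all genes tested. Of the 476 lower genes, 411 (86.3%) were higher in KD in both pairs without UV, against 39.0% of all genes. The higher genes had median log2 differences of 0.80 and 0.80 after UV, and of −1.0 and −0.63 without UV. For the lower genes they were −0.82 and −0.87 after UV, and 0.68 and 1.66 without. Across all tested genes, the mean log2 difference with UV and that without UV had a Spearman rho of −0.73. So most genes called in irradiated cells had KD over WT in the opposite direction in unirradiated cells, where the row orders of the tables are also exchanged. Every sign of KD over WT rests on the labels as given, and whether labels were exchanged in the irradiated or the unirradiated samples was not tested. The knockdown by UV term of the 8 libraries was called positive for 3675 genes (20.6% of 17840) and negative for 2612 (14.6%). Since it contains the difference after UV, it is no separate evidence on the genes called there.

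**Figure D2:**
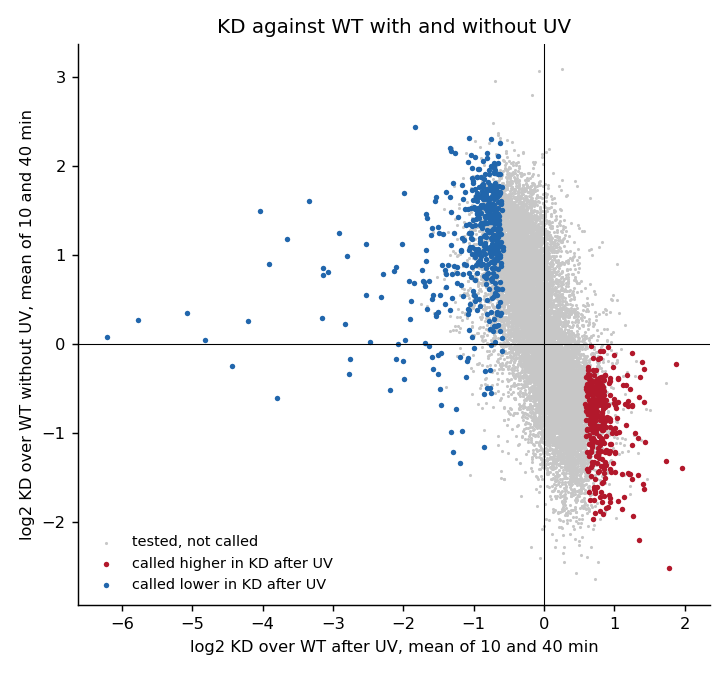
Log2 ratio of KD over WT, mean of 10 and 40 min, with UV (x axis) and without UV (y axis), 1 point per tested gene, called genes in red (higher in KD after UV) and blue (lower). Of the 339 red genes 324 were negative in both pairs without UV.

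Among the genes higher in KD were receptors, enzymes and regulators of short to middle span. *ENG* (chr9:127815012-127854756), the endoglin co-receptor of TGF-beta, had 25.1 and 29.5 RPM in WT and 67.5 and 65.9 RPM in KD at 10 and 40 min. Both KD libraries lie above both WT libraries, by 2.69-fold and 2.23-fold, and the fitted log2 difference was 1.34 ± 0.17 (edgeR adjusted p = 0.000199). Without UV, *ENG* was at 96.3 and 39.6 RPM in WT and 29.4 and 17.3 RPM in KD, so WT with UV and KD without UV were both low. The zinc finger gene *ZNF404* had 26.5 and 27.6 RPM in WT and 59.2 and 74.2 RPM in KD, and the groups did not overlap. Its log2 difference was 1.35 ± 0.17 (edgeR adjusted p = 0.000201). *INTS12*, a subunit of the Integrator complex that ends transcription of small nuclear RNAs and of paused genes, had 19.4 and 23.3 RPM in WT and 44.2 and 63.2 RPM in KD. Without UV at 40 min *INTS12* had 19.8 RPM in WT and 21.5 RPM in KD, so it did not reverse there. *SULT1C4*, a sulfotransferase, had the highest fitted difference of the higher genes named, 1.83 ± 0.25 (edgeR adjusted p = 0.000581), on 36 and 41 reads in WT and 137 and 167 in KD. *ZNF668* rose by 1.42 ± 0.19, from 18.2 and 25.7 RPM to 60.2 and 52.6 RPM. The serine protease gene *TMPRSS7* rose by 1.44 ± 0.20 and the glycosyltransferase gene *UGT3A1* by 1.42 ± 0.19 on the log2 scale. With the shortest transcript in place of the longest, *UGT3A1* had a log2 difference of −0.18. *TP53RK*, a kinase of the KEOPS complex that modifies transfer RNA, rose by 1.33 ± 0.26 on 25 and 65 reads in WT and 60 and 200 in KD. *PBDC1* rose by 1.32 ± 0.26. *DUSP6*, the phosphatase that turns off ERK, had 4.63 and 12.1 RPM in WT and 9.62 and 31.6 RPM in KD and rose by 1.31 ± 0.21. *LHFPL3-AS2* rose by 1.46 ± 0.29, with ratios that differed between the times (0.54 at 10 min and 2.31 at 40 min on the log2 scale). Annotated genes on the opposite strand cover 39.4% of its span, and those on its own strand 0%.

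**Figure D3:**
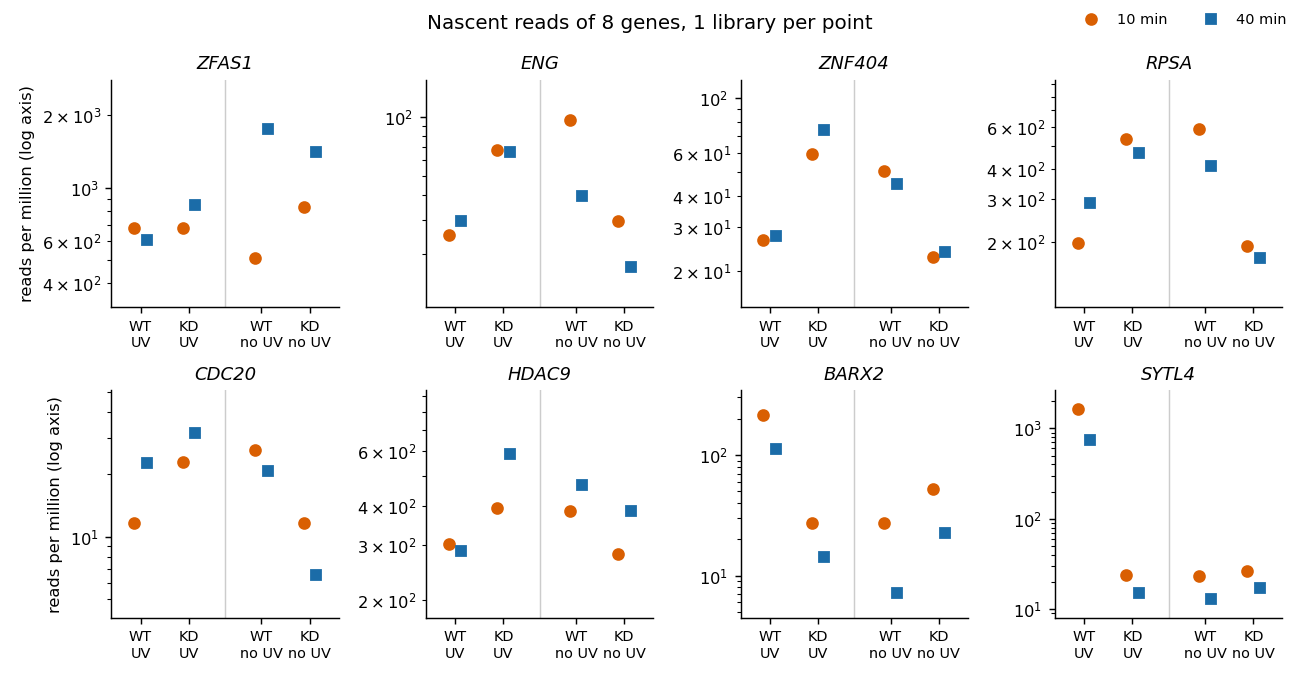
RPM (log axis) for 8 genes in the 8 libraries, 1 point per library, 10 min as orange circles and 40 min as blue squares. *ENG*, *ZNF404*, *RPSA* and *CDC20* are higher in KD than WT with UV at each time and lower without UV, *SYTL4* and *BARX2* are high in the WT irradiated libraries, *HDAC9* is higher in KD with UV and lower without, and *ZFAS1* is about level in WT and KD at 10 min after UV.

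Genes that were lower in KD fell into a small set with very high reads in WT after UV and a larger set with modest differences. In 15 genes both WT irradiated libraries exceeded each of the other 6 libraries by over 3 times, a description that follows from how the set was chosen. *SYTL4* (chrX:100674494-100731534), a synaptotagmin-like gene of vesicle release, had 17411 and 9532 reads in WT after UV. It had 291 and 228 in KD after UV, and 221 to 281 in the 4 libraries without UV. Its fitted log2 difference was −5.79 ± 0.26 (edgeR adjusted p = 9.3e-10). *TGM6*, a transglutaminase, had 7519 and 3306 reads in WT and 182 and 144 in KD. *PLPP1*, a lipid phosphate phosphatase, had 17893 and 9521 in WT and 471 and 550 in KD. In these genes KD after UV lay far closer to the libraries without UV than to the WT irradiated pair. *BOK*, a pro-apoptotic member of the BCL2 family, had 1737 and 402 RPM in WT and 61.0 and 38.7 RPM in KD. *NAT10*, the RNA acetyltransferase, had 973 and 263 RPM against 28.4 and 42.7 RPM. *GLRA3*, a glycine receptor subunit, had 376 and 110 RPM against 14.8 and 11.2 RPM. *SLC7A2*, an arginine transporter, had 569 and 124 RPM against 15.5 and 12.2 RPM, although its shortest transcript had a log2 difference of −0.09. In these 7 genes the WT value was higher at 10 than at 40 min.

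*THY1*, a surface glycoprotein used as a fibroblast marker, belongs to this set. It had 719 and 234 reads in WT after UV and 17 and 21 in KD, and 10 to 28 in the libraries without UV. In the other 6 libraries its density was 0.732 to 3.07 times that of silent genes. The 15 genes took 1.77% and 0.580% of all reads over genes in WT after UV, and 0.0558% and 0.0454% in KD. With these 15 genes left out of the test, 378 genes were called higher and 500 lower, which include 339 and 461 of the genes called with them in. What made the reads of these genes so high in that pair was not tested.

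In other genes lower in KD both WT irradiated libraries also lay above both KD ones, with less extreme values. *BARX2*, a homeobox factor, had 215 and 113 RPM in WT and 27.4 and 14.2 RPM in KD after UV, 7.84-fold and 7.92-fold lower. It fell by 2.92 ± 0.18 on the log2 scale (edgeR adjusted p = 3.05e-08), and without UV KD was the higher at both times (52.0 and 22.5 RPM against 27.6 and 7.16 RPM in WT). *DECR2*, a peroxisomal reductase of fatty acid breakdown, had 742 and 276 reads in WT and 65 and 51 in KD. *PDIA2*, a protein disulfide isomerase, had 138 and 55 against 15 and 5. *THBS2*, the matrix protein thrombospondin 2, had 133 and 45.2 RPM against 21.5 and 13.3 RPM and fell by 2.15 ± 0.20. *BARX2* was also called in the fit of all 8 libraries, as were *DECR2* and *PDIA2*.

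The difference between KD and WT varied with gene span, more at 10 min than at 40 min. Across active genes the Spearman rho of span with the log2 ratio was −0.24 at 10 min and −0.084 at 40 min. Damage per gene grows with length, so span was examined in active genes, those whose read density over the 4 libraries was at least 3 times that of 42 silent genes (olfactory and taste receptors, keratin-associated proteins and defensins). In the 2460 active genes of 1 to 10 kb, the median log2 ratio of KD over WT was 0.31 at 10 min and 0.18 at 40 min. In the 3205 genes of 10 to 30 kb it was 0.21 and 0.19, and in the 2033 of 30 to 60 kb 0.16 and 0.20. It then declined to 0.10 and 0.15 in the 1072 genes of 60 to 100 kb, and to 0.03 and 0.03 in the 956 of 100 to 200 kb. In 443 genes of 200 to 500 kb it was −0.02 and −0.05, and in 96 genes over 500 kb −0.07 and −0.20. At 40 min the medians up to 100 kb thus lay between 0.15 and 0.20. Short genes were on the KD side of even and the longest on the WT side at both times, and the quartiles within each class (−0.07 to 0.63 for the shortest genes at 10 min) overlap those of all other classes. The pairs without UV ran the other way, from −0.67 and −0.51 in the shortest class to 0.13 and 0.81 in the longest. With the density of silent genes as the scale in place of TMM, the median of all genes moved up by 0.26 at 10 min and 0.20 at 40 min, so the sign of the classes over 200 kb depends on the scale. A scale factor of a library cancels in the difference between genes of 1 to 10 kb and those over 200 kb. This difference was 0.30 on average over the times with an SD of 0.047 (n = 2 times). It was 0.22 with an SD of 0.16 among genes of at least 10 times the silent density. The times are not replicates, so neither SD is a measure of noise.

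**Figure D4:**
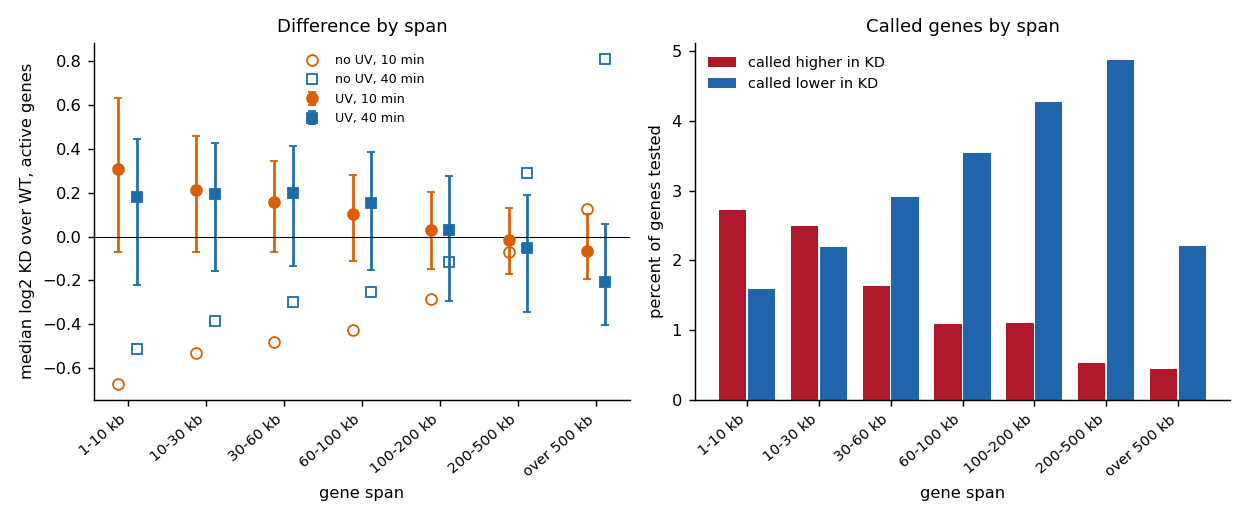
Left, median log2 ratio of KD over WT in active genes by span, filled symbols with quartiles for the irradiated pairs and open symbols for the pairs without UV, 10 min in orange and 40 min in blue. Right, percent of tested genes called higher (red) and lower (blue) in KD by span. The filled medians decline from 0.31 and 0.18 to −0.07 and −0.20 with span.

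The share of calls also varied with span. Of 3532 tested genes of 1 to 10 kb, 96 (2.72%) were called higher and 56 (1.59%) lower. Of 943 genes of 200 to 500 kb, 5 (0.530%) were called higher and 46 (4.88%) lower, and over 500 kb it was 1 and 5 of 227 (0.441% and 2.20%). These shares take in genes near the silent density. Of the 476 lower calls, 262 were in active genes, as were 326 of the 339 higher ones. The density that makes a gene active is a mean over WT and KD libraries. A called gene can therefore count as active through the group in which it is high, and counts of calls among active genes include such genes. Split at the median GC content, active genes of 200 to 500 kb held 1 and 6 lower calls (222 and 221 genes). Those of 1 to 10 kb held 12 and 31 (1230 genes each), so between these classes the longer did not hold the larger share. Classes between them held larger shares, with 9 and 24 at 60 to 100 kb (536 genes each) and 10 and 19 at 100 to 200 kb (478 genes each). The median span was 17.5 kb for the higher genes, 45.2 kb for the lower ones and 28.2 kb for all. The count without a test differed on the lower side. The genes at least 1.5-fold lower at both times made up 5.97% of those of 1 to 10 kb and 1.32% of those over 500 kb, and their median span was 20.3 kb. The genes at least 1.5-fold higher made up 4.70% and 0 of these classes, with a median span of 10.2 kb. The lower genes were thus longer than all genes by the test and shorter by the fold count. Named genes in the classes of 60 kb and over gave both directions. *SLC7A1*, the main arginine transporter of the cell (86.3 kb), had 249 and 274 RPM in WT and 459 and 512 RPM in KD and rose by 0.95 ± 0.19 (edgeR adjusted p = 0.0128). *FHL2*, a LIM protein of the cytoskeleton and nucleus (77.7 kb), rose by 0.79 ± 0.17. *TPRG1* (153 kb) rose by 1.16 ± 0.21 and *ARHGAP29*, a RhoA regulator (125 kb), by 0.83 ± 0.17. *MYO5A*, a cargo myosin (222 kb), rose by 0.66 ± 0.17 and *SCMH1*, a Polycomb protein (215 kb), by 0.70 ± 0.17, where its shortest transcript gave −0.08. *HDAC9*, a histone deacetylase, was the single gene over 500 kb called higher, with 301 and 288 RPM in WT and 394 and 585 RPM in KD (0.76 ± 0.21, edgeR adjusted p = 0.0468). On the lower side, *ADGRB3*, an adhesion receptor of 754 kb, had 1213 and 444 RPM in WT and 242 and 213 RPM in KD. *SYNE1*, which ties the nucleus to the cytoskeleton (516 kb), had 418 and 280 RPM against 240 and 174 RPM and fell by 0.68 ± 0.18. *ANK1*, the ankyrin of the red cell membrane (244 kb), fell by 1.28 ± 0.17. *ADGRB3* and *ANK1* passed the cut of 3 times the silent density on the mean of the 4 libraries (4.63 and 3.66 times). In each KD library they lay under it, so their WT reads put them among the active genes.

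Reads were also placed along genes over 60 kb, from the differences between nested transcripts. In segments under 10 kb from the start the median log2 ratio of KD over WT was 0.16 at 10 min and 0.14 at 40 min (35 segments). It was 0.04 and 0.22 at 10 to 30 kb, 0.10 and 0.08 at 30 to 60 kb, and 0.00 and 0.02 at 60 to 100 kb. Beyond 200 kb it was −0.00 and −0.14 (62 segments). The difference between segments under 30 kb and over 100 kb was 0.14 on average with a spread between the times of 0.15 (SD, n = 2). The times follow a moving wave and are not replicates, so this SD is no measure of noise. Whether the change along the gene differs from none was not tested. Long genes that the study discusses had whole-span reads near even. The study used *PPP1R12A* and *CTNNBL1* to show the front of the polymerase wave, and measured *KIFAP3* at exon-intron junctions by RT-PCR. After UV it reports fronts alike in WT and KD at 10 min, and further along in KD at 40 min. Reads summed over a span do not locate a front, so its position was not tested here. *PPP1R12A* (162 kb), a subunit of myosin phosphatase, had 113 and 155 RPM in WT and 129 and 164 RPM in KD. *CTNNBL1* (178 kb), a splicing factor, had 103 and 103 RPM in WT and 98.1 and 87.1 RPM in KD. *KIFAP3* (153 kb), a kinesin subunit, had 79.6 and 68.4 RPM in WT and 74.3 and 57.7 RPM in KD. None of the 3 was called, with log2 differences of 0.19 ± 0.17, −0.10 ± 0.16 and −0.12 ± 0.16 (edgeR adjusted p of 0.471, 0.705 and 0.661).

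The difference also varied with read density and base composition. In genes below the density of silent genes the median log2 ratio was −0.28 at 10 min and −0.37 at 40 min, and it went up class by class at 10 min, to 0.42 in the 222 genes at 100 times that density or more. At 40 min it was 0.23 from 10 to 100 times and 0.21 above. The share of reads that a uniform background at the density of silent genes would give was 20.5% and 14.7% in WT and 16.6% and 12.2% in KD after UV. Without UV it was 15.2% and 6.80% in WT and 24.8% and 17.9% in KD, so at each time the 2 libraries of the row order shared by WT with UV and KD without UV had the higher shares. The part of this background in the called genes was not tested. The genes called higher had a median GC content of 42.4% over their span and the lower ones 45.8%, against 44.4% for all. The TT pairs on the template strand, where UV dimers form most readily, were at a median of 83.9 per kb in the higher genes, 76.5 in the lower and 79.6 in all. Among active genes, the 2567 genes lowest in GC content had median log2 ratios of 0.15 and 0.28 and the 2566 highest 0.13 and −0.08, with a Spearman rho of GC content and ratio of −0.02 at 10 min and −0.30 at 40 min. These sets differ in span as well (medians of 53.1 and 9.64 kb). In genes of 1 to 10 kb the less GC-rich part had medians of 0.37 and 0.31 and the more GC-rich part 0.25 and −0.00. At 10 min the less GC-rich part was the higher one in each span class up to 500 kb, by 0.27 against 0.14 at 10 to 30 kb and 0.02 against −0.06 at 200 to 500 kb, and over 500 kb it was the lower one (−0.08 against −0.04).

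Functional lists of housekeeping genes had positive medians after UV. Of 84 cytosolic ribosomal protein genes, all tested, 17 were called higher and 0 lower, against 1.94% and 2.72% of all genes. In both pairs 77 of them were positive, against 6301 of all 17509 genes tested. Their median log2 ratio was 0.64 at 10 min and 0.33 at 40 min, against 0.02 and −0.01 over all genes, and −1.26 and −0.78 without UV. *RPSA*, the ribosomal protein that also serves as laminin receptor, had 198 and 291 RPM in WT and 532 and 465 RPM in KD and rose by 1.10 ± 0.21 (edgeR adjusted p = 0.00982). It was taken after its values were seen, and without UV it was lower in KD at both times. Ribosomal protein genes have many near-identical processed copies in the genome, so reads of these genes are uncertain where the aligner could not place them. Of 75 nuclear genes of oxidative phosphorylation 4 were called higher and 0 lower, with medians of 0.55 and 0.36. *COX4I1*, a subunit of cytochrome oxidase, rose by 0.75 ± 0.19. Of 76 mitochondrial ribosomal protein genes 5 were called higher and 1 lower (0.46 and 0.34), and of 37 proteasome subunits 0 in either direction (0.42 and 0.27, 31 positive in both pairs). Without UV the medians were −1.13 and −0.60 for oxidative phosphorylation, −0.82 and −0.45 for mitochondrial ribosomal proteins, and −1.04 and −0.56 for proteasome subunits. These lists hold short and densely read genes, with median spans of 4.90 to 16.0 kb, and the part of span and density in their medians was not tested. Scaled by library totals, the ribosomal list had 1 called member in place of 17, and scaled on silent genes 58. Over all 17509 genes tested, library totals called 37 higher and the silent scale 2817.

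Zinc finger genes and hosts of small nucleolar RNAs also held called genes. Of 406 genes with ZNF names that were tested, 29 were called higher and 5 lower, against 1.94% and 2.72% of all genes, with medians of 0.11 and 0.35. With library totals the counts were 6 and 1, and on the silent scale 117 and 2. Over all 17509 genes tested these scales gave 37 and 196, and 2817 and 220. *ZNF699* had 20.8 and 28.1 RPM in WT and 46.3 and 67.3 RPM in KD and rose by 1.26 ± 0.17. *ZNF432*, chosen after its values were seen because its promoter is shown, rose by 0.84 ± 0.22, mostly at 40 min (13.4 RPM in WT and 31.4 RPM in KD). *ZNF688* went the other way, with 44.7 and 42.0 RPM in WT and 30.3 and 18.4 RPM in KD, and fell by 0.82 ± 0.18, where its shortest transcript gave 1.80. The ETS core was found in 46.4% of the 28 promoters matched for the called ZNF genes, in 41.7% of the 348 matched for all ZNF genes tested and in 15.7% of the 12916 matched for all genes tested. Over all genes called higher it was in 25.4% of 268 promoters and over those called lower in 8.07% of 310. For the CCAAT box these shares were 42.5% and 34.5%, against 36.2% of all tested, and for the GC box 62.3% and 51.3% against 62.8%. Among all 27305 RefSeq promoters, 10.7% held the ETS core, 35.7% the CCAAT box and 44.6% the GC box. A match of letters is not a bound site. Of 13 hosts of small nucleolar RNAs tested, 4 were called higher and 0 lower (1.94% and 2.72% of all genes). With library totals 1 was called higher and on the silent scale 5, against 37 and 2817 of all 17509 genes tested. *SNHG7* had 174 and 265 RPM in WT and 462 and 449 RPM in KD and rose by 1.14 ± 0.21 (edgeR adjusted p = 0.00614). *SNHG15* had 79.5 and 133 RPM against 301 and 187 RPM and rose by 1.26 ± 0.25. *SNHG3* rose by 0.93 ± 0.24, but 98.4% of its span lies inside another gene on the same strand, so its reads cannot be assigned to it alone. *ZFAS1*, itself in this list, was not called.

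**Figure D5:**
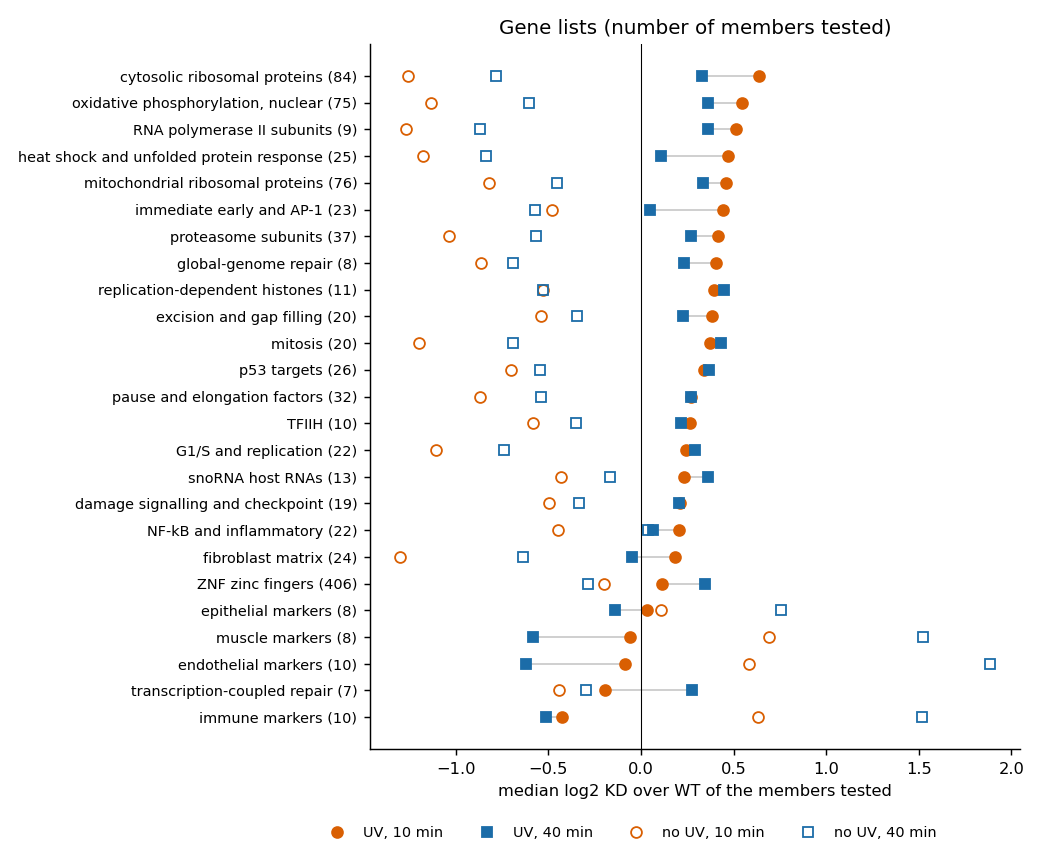
Median log2 ratio of KD over WT in each gene list, with the number of members tested in parentheses, filled symbols for the irradiated pairs and open symbols for the pairs without UV, 10 min in orange and 40 min in blue. The cytosolic ribosomal proteins are at 0.64 and 0.33 with UV and at −1.26 and −0.78 without, and the immune markers are at −0.43 and −0.51 with UV and 0.63 and 1.52 without.

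Lists of the damage response had 7 to 26 members, and their calls are read against 1.94% higher and 2.72% lower of all genes. Positive in both pairs were 6301 of all 17509 genes tested. Of 26 targets of p53, the factor that arrests damaged cells, 2 were called higher and 0 lower, and 20 were positive in both pairs (medians 0.34 and 0.37, and −0.70 and −0.54 without UV). *PHLDA3*, an inhibitor of AKT, had 39 and 47 reads in WT and 99 and 131 in KD and rose by 1.27 ± 0.26 (edgeR adjusted p = 0.0148). *AEN*, an apoptosis-enhancing nuclease, had 19.4 and 26.4 RPM against 27.5 and 42.2 RPM and rose by 0.65 ± 0.17. *PMAIP1*, the pro-apoptotic NOXA, had 17.2 and 45.4 RPM against 23.6 and 69.5 RPM and was just outside the threshold (0.60 ± 0.17, edgeR adjusted p = 0.0521). *CDKN1A*, the p21 inhibitor of the cell cycle, had 12.3 and 16.6 RPM in WT and 12.9 and 20.3 RPM in KD (edgeR adjusted p = 0.438). Of 23 immediate early genes 1 was called higher, *DUSP5*, another ERK phosphatase, with 16.8 and 83.2 RPM against 34.0 and 103 RPM. *ATF3*, a stress factor, differed in sign between the times, with 90.05 RPM in WT and 124 in KD at 10 min, and 231 and 166 RPM at 40 min (edgeR adjusted p = 0.913). Of the genes of nucleotide excision repair, 0 of 7 in transcription-coupled repair, 0 of 8 in global-genome repair and 0 of 10 in TFIIH were called in either direction. Their medians were −0.20 and 0.28, 0.41 and 0.23, and 0.26 and 0.22. Without UV these medians were −0.44 and −0.30, −0.86 and −0.69, and −0.58 and −0.35. Of 20 genes of excision and gap filling 1 was called higher, *RFC3* of the clamp loader, with 54.7 and 75.5 RPM against 77.4 and 114 RPM (0.60 ± 0.16, edgeR adjusted p = 0.0463). *PCNA*, the clamp itself, had 45.4 and 93.6 RPM against 70.4 and 123 RPM and did not pass (edgeR adjusted p = 0.0595). Of 19 genes of damage signalling and checkpoints 0 were called. The counts rest on the scale: on silent genes 14 of the 26 p53 targets, 9 of 20 genes of excision and gap filling, 4 of 8 of global-genome repair and 4 of 10 of TFIIH were called higher. On that scale 2817 of all 17509 genes tested were called higher.

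Genes of the transcription machinery and the cell cycle had positive medians after UV, as did active genes as a whole (0.16 and 0.16). Without UV the medians were −1.27 and −0.87 for polymerase subunits and −0.87 and −0.54 for pause and elongation factors. They were −1.20 and −0.69 for mitotic genes, −1.11 and −0.74 for G1/S and replication, and −0.48 and −0.30 for active genes. The calls are read against 1.94% higher and 2.72% lower of all genes. Of 9 subunits of RNA polymerase II tested 1 was called, *POLR2C*, with 9.72 and 16.7 RPM in WT and 17.2 and 25.01 RPM in KD (0.75 ± 0.19). The largest subunit, *POLR2A*, had 48.3 and 104 RPM against 76.8 and 126 RPM (0.52 ± 0.17, edgeR adjusted p = 0.0772). Of 32 pause and elongation factors 0 were called, and 26 were positive in both pairs (medians 0.27 and 0.27), against 6301 of all 17509 genes tested. All 20 mitotic genes were positive in both pairs (0.38 and 0.43), and 2 were called. *CDC20*, the activator of the anaphase-promoting complex, had 11.6 and 22.6 RPM against 22.9 and 31.8 RPM and rose by 0.77 ± 0.19. *KIF20A*, a kinesin of cytokinesis, rose by 0.65 ± 0.17. Of 22 genes of G1/S and replication 1 was called, *CDC6*, which loads the replicative helicase (0.67 ± 0.16). Of 25 heat shock and unfolded protein genes 1 was called, *HERPUD1*, with 9.16 and 23.0 RPM against 12.9 and 43.7 RPM. Of 22 NF-kB and inflammatory genes 1 was called lower, the precursor gene *NFKB2*, with 59.5 and 21.8 RPM in WT and 18.6 and 17.6 RPM in KD, most of it at 10 min. Of 24 genes of the fibroblast matrix 0 were called, with medians of 0.18 and −0.05. On the silent scale 6 of 9 polymerase subunits, 12 of 32 elongation factors, 16 of 20 mitotic genes and 9 of 22 of G1/S were called higher, and with library totals 0 in each of these 4 lists. Of all 17509 genes tested, 2817 were called higher on the silent scale and 37 with library totals.

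Markers of other cell types mostly had negative medians with TMM, and on the silent scale the medians at 10 min of all but the immune list were positive. Some were far above the density of silent genes in these cells, *ACTA1* at 62.6 times, *KRT18* at 37.7 and *ERG* at 16.6 times. At 1.94% and 2.72% of all genes called, lists of 8 to 10 members are too small for a count of 0 to set them apart. Of 10 endothelial markers 0 were called and 7 were negative in both pairs, against 6013 of all 17509 genes tested. Their medians were −0.09 and −0.62, and 0.58 and 1.89 without UV. Scaled on silent genes, the endothelial median was 0.16 at 10 min and −0.42 at 40 min. Of 10 immune markers 0 were called, with medians of −0.43 and −0.51. Of 8 muscle markers 0 were called (−0.06 and −0.58). Of 8 epithelial markers 1 was called lower, *ESRP1*, a splicing regulator of epithelia, with 24.8 and 16.2 RPM in WT and 14.2 and 8.36 RPM in KD. No marker of these 4 lists was at 0 in all irradiated libraries. The summed level of the immune list (TMM-scaled CPM) went from 142 and 104 for WT to 124 and 69.9 for KD, and that of the endothelial list from 1124 and 1056 to 1302 and 662. The 5 silent genes with enough reads to be tested had medians of −0.34 and −0.40, near those of the immune list.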

How the data were processed

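Nuclear run-on RNA from 8 samples was sequenced, and the 4 irradiated ones were compared. The authors deposited raw read counts per transcript over its whole span, 41581 transcripts of 19351 gene names, 22 of which are written as dates. The submitters' processing notes name BWA 0.5.9, SAMtools and hg38; for the counter and its strand setting, nothing is stated in those sources. Of pairs with a gene inside another on the opposite strand, the outer gene had fewer reads in 31 of 443, and on the same strand in 0 of 423, so antisense reads were not counted for the outer gene.

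The transcript with the largest end minus start was kept per gene. Genes with low counts were removed (filterByExpr, minimum count 10, total 15), counts were scaled by TMM and tested in edgeR 4.0.16 (R 4.3.3) by quasi-likelihood with time and cell as terms, with Benjamini-Hochberg adjustment and a threshold of 0.05. SE is that of the fitted log2 difference. Log2 ratios per time used a prior count of 2. CPM in lists is TMM-scaled, and RPM is reads per 1e6 reads over genes. DESeq2 1.42.0 and limma 3.58.1 served as alternatives. The script was tested on simulated data. Named genes were up to 12 called genes a direction with the largest change and at least 50 reads in a pair of libraries, genes discussed in the study, the densest and called members of lists, the 3 with the smallest p per direction in each span class, and genes high in WT after UV; not every gene the rule takes is reported here. Members and lists were chosen with earlier results of these data known. TATAAA was also searched in promoters and was in 7.84% of those of higher and 6.13% of those of lower genes, against 7.19% for all genes tested. Promoters were matched by symbol for 12916 of 17509 genes.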

Additional observations from a re-analysis of the deposited data

Results flagged for a closer look

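The difference of the KD over WT ratio with UV from that without UV was tested in edgeR over all 8 libraries, with adjusted p-values over 17840 genes. Of the 62 genes whose reads are given in the report 54 passed, 36 upward and 18 downward, at adjusted p from 0.00542 to 0.0387, against 20.6% upward and 14.6% downward of all genes. Most of these genes were named for their difference after UV, which is part of the term, so the number that passed was largely set by the choice. The term also separates the 2 row orders of the tables, and these readings cannot be told apart. Values are log2 terms with 2 residual degrees of freedom. The largest positive terms were 4.76 for *SULT1C4*, 3.30 for *SNHG15*, 3.17 for *ZNF668*, 3.09 for *UGT3A1*, 2.96 for *SNHG7*, 2.92 for *ENG*, 2.90 for *PHLDA3*, 2.88 for *ZNF699*, 2.76 for *SNHG3*, 2.66 for *RPSA*, 2.51 for *KIF20A*, 2.505 for *ZNF404* and 2.48 for *SLC7A1*. Lower in that order came 2.43 for *PBDC1*, 2.39 for *POLR2A*, 2.32 for *CDC20*, 2.30 for *COX4I1*, 2.18 for *TMPRSS7*, 2.12 for *TP53RK*, 1.95 for *POLR2C*, 1.93 for *TPRG1*, 1.89 for *ARHGAP29*, 1.88 for *MYO5A*, 1.83 for *CDC6*, 1.83 for *INTS12* and 1.82 for *LHFPL3-AS2*. The smallest positive terms that passed were 1.76 for *DUSP5*, 1.67 for *HERPUD1*, 1.63 for *PCNA*, 1.61 for *PMAIP1*, 1.61 for *ZNF432*, 1.53 for *FHL2*, 1.43 for *SCMH1*, 1.31 for *AEN*, 1.31 for *ZNFX1* and 1.07 for *RFC3*. The negative terms of larger size were −5.97 for *SYTL4*, −5.46 for *BOK*, −5.34 for *TGM6*, −4.78 for *PLPP1*, −4.75 for *GLRA3*, −4.39 for *SLC7A2*, −4.08 for *THY1*, −4.07 for *BARX2*, −3.85 for *DECR2* and −3.74 for *PDIA2*. The other negative terms were −3.09 for *NAT10*, −2.86 for *THBS2*, −2.43 for *ANK1*, −2.39 for *ZNF688*, −2.38 for *NFKB2*, −2.25 for *ADGRB3*, −2.17 for *ESRP1* and −1.36 for *SYNE1*.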

How the results depend on the processing

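Calls between KD and WT after UV depended on the processing. Against 339 genes higher and 476 lower, RLE size factors gave 179 and 292, library totals 37 and 196, and silent genes as the scale 2817 and 220. Upper quartile scaling gave 127 higher. No filter on low counts gave 13 and 70, and a minimum of 50 reads in each library gave 126 higher. DESeq2 gave 41 and 103, a fit without time 0 and 15 (643 genes at an unadjusted p under 0.05), and all 8 libraries 0 and 18 (2004 at an unadjusted p under 0.05). Leaving out 1 irradiated library gave 0 to 1 higher and 2 to 18 lower (301 to 845 at an unadjusted p under 0.05). Without overlapping genes there were 95 and 190. The split of calls between higher and lower moved with the scale. With limma-voom the counts were 308 and 426. Genes at least 1.5-fold apart at both times were 1571 higher and 267 lower on the silent scale, 114 and 444 at 50 reads, and 670 higher with 8 libraries. The span difference was 0.22 at the stricter density.

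Directions that reversed were few. *CTNNBL1* was 0.13 on the silent scale and 0.05001 to 0.05051 without a library at 40 min, and *KIFAP3* 0.11, and 0.02636 to 0.02686. *ATF3* was −0.0135 with library totals, −0.00449 with upper quartile, −0.00993 at 50 reads, −0.083 without time, and −0.41 to 0.587 without 1 irradiated library. With the shortest transcript *UGT3A1* was −0.18, *SCMH1* −0.0836 and *ZNF688* 1.80. The cause was not tested. The test itself pairs KD with WT by time, and without time as a term it gave the 0 and 15 calls above. Depth limits genes near the density of silent genes, which held 584 to 694 reads over 42 genes in the irradiated libraries.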
